A study of Rattus norvegicus with 167 samples.

Results

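The genes described here are 5 that mark cholinergic cells and spinal motor neurons: Chat, Slc18a3, Slc5a7, Chodl and Isl1. They were chosen by name, and each was read from its probe set with the highest mean among those that carry 1 gene symbol, out of 14218 genes named on the array. Of the 5, Chat, Slc18a3, Slc5a7 and Chodl passed the filter on low values and were tested. Isl1 lay below it in every array and is given by its values only.

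Cholinergic neurons make acetylcholine from choline and acetyl-CoA, pack it into synaptic vesicles, and take back the choline that is left when the transmitter has been split outside the cell. In the spinal cord the motor neurons of the ventral horn are the large cholinergic cells, and preganglionic autonomic neurons and some interneurons are cholinergic too. Chat encodes choline acetyltransferase, the enzyme of synthesis, Slc18a3 the vesicular acetylcholine transporter, and Slc5a7 the high-affinity choline transporter that supplies the enzyme. Chodl encodes chondrolectin, a membrane lectin known as a marker of fast motor neurons, and Isl1 a LIM homeodomain transcription factor of developing motor and sensory neurons.

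RNA was taken from adult female Wistar rats whose thoracic cord had been cut through at T7/8 and a 5 mm piece removed, and from 3 uninjured cords. The gap held a chitosan tube with neurotrophin-3 (NT3), a growth factor for neurons, an empty chitosan tube (ET), or nothing (lesion control, LC), so all 3 arms share the transection. The cord rostral and caudal to the gap was sampled in each arm on days 1, 3, 10, 20, 30, 60 and 90. The lesion site was sampled from day 3 on in NT3 and LC, and on day 3 in ET. The arrays form 55 groups of 3 and 1 group of 2, the rostral ET group of day 10. Days 1 and 3 are called early, days 10, 20 and 30 intermediate, and days 60 and 90 late. Nothing in the labels ties each replicate to an animal of its own. The p-values therefore speak of the variation among the arrays of a group, which may be technical, and the number of arrays limits the precision.

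All values are the authors' deposited log2 values, in which a difference of 1 is a doubling. A gene is said to have risen or fallen where limma's moderated test gave a Benjamini-Hochberg adjusted p under 0.05 over 12041 tested genes; a difference is printed with its standard error after the ± sign. Of all arrays, 3 stood apart from the rest: lesion site LC day 20 replicate 5, lesion site NT3 day 3 replicate 1 and uninjured replicate 2. Without them, 157 of 160 member results kept their side of the threshold, and the 3 that did not all concern caudal LC against uninjured cord. The general neuron list described below had a mean from 11.9 to 12.1 in the uninjured cords, so neuron genes were well detected there. These cords also differed in Hoxa10, a gene of position along the cord, at 8.64, 10.8 and 9.59. RT1-CE10, a class I histocompatibility gene, stood above or below 9 by whole groups, except for the LC groups of day 3 and lesion-site LC on day 20, which held both. Comparisons are given for days of like RT1-CE10 as well where such days exist and that changes them. In bulk tissue, fewer cells of a type and less RNA per cell cannot be told apart.

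Chat and Slc18a3 belong to 1 locus: the transporter gene lies within Chat, and its start is 602 bases downstream of that of Chat on the same strand. The 250 bases upstream of the annotated starts of the 3 genes of the acetylcholine cycle are shown because the results compare how far these genes move together. They are RefSeq sequences of assembly GRCr8, at chr16:7723417-7723666 on the minus strand for Chat, chr16:7722815-7723064 on the minus strand for Slc18a3 and chr9:7953510-7953759 on the minus strand for Slc5a7. Capitals mark matches to 6 motifs searched on both strands.
Chat: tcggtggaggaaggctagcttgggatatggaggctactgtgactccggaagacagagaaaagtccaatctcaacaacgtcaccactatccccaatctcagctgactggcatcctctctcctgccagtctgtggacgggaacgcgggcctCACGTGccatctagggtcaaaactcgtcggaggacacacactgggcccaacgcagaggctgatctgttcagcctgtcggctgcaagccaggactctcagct
Slc18a3: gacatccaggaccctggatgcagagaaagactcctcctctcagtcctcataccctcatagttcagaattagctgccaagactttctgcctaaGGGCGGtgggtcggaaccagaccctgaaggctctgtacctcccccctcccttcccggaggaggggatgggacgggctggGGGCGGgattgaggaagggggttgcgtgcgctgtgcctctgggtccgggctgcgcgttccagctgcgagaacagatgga
Slc5a7: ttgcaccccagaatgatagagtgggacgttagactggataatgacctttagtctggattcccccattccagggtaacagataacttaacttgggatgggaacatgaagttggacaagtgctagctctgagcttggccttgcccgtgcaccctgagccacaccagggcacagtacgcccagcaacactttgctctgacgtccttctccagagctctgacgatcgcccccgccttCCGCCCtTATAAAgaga
The capitals are an E-box, CACGTG, from -101 to -96 in Chat, GC boxes, GGGCGG, from -158 to -153 and -79 to -74 in Slc18a3, and in Slc5a7 a GC box on the other strand, CCGCCC, from -17 to -12 and a TATA box, TATAAA, from -10 to -5. Of 33469 rat windows of this length, 5.59% held the E-box, 30.5% a GC box and 12.9% the TATA box, on either strand. None of the 3 held the homeodomain core TAATTA, found in 4.86% of windows, or the arms of the RE1 element that the repressor REST binds, TTCAGCACC in 0.305% and GGACAG in 18.2%. The windows of Chodl and Isl1 held none of the 6. The sequences of the array's probes were not used here, so whether signal is shared between the overlapping Chat and Slc18a3 was not tested.

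In uninjured cord all 4 tested genes were measured well inside the array's range, and the group means of the lesion site were the lowest. Chat read 8.02, 8.22 and 8.09 in the 3 uninjured cords, Slc18a3 8.22, 8.49 and 8.42, Slc5a7 10.81, 10.04 and 10.38, and Chodl 11.49, 11.24 and 11.43. The levels of different probe sets are not comparable with each other. The 3 cords lay close together for Chat, Slc18a3 and Chodl, with SDs from 0.11 to 0.14, and further apart for Slc5a7, with an SD of 0.39.

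Ordered by group mean, 43 of the 56 groups, all those of uninjured, rostral and caudal cord, stood above the 13 lesion-site groups for each of the 4 genes. Uninjured cord was the highest group for Chat at 8.11 ± 0.11 (SD, n = 3) and for Slc5a7 at 10.41 ± 0.39 (SD, n = 3). For Slc18a3 it stood at 8.38 ± 0.14, and caudal NT3 on day 90 was higher at 8.42 ± 0.10; for Chodl it stood at 11.39 ± 0.13, and caudal ET on day 90 was higher at 11.61 ± 0.06 (SD, n = 3 in each). The lowest intact tissue was rostral ET on day 10 for Chat, with 6.12 and 6.02 in its 2 arrays, for Slc18a3, with 7.14 in both, and for Chodl, with 9.44 and 9.49. The gap to the lesion site was small for Chodl, whose highest group there, NT3 on day 90, stood at 9.37: 1 of its arrays, at 9.48, lay inside the range of 9.17 to 9.74 of rostral LC on day 3. The order is a continuum: of 55 neighbouring pairs of groups, 51 for Chat, 54 for Slc18a3, 53 for Slc5a7 and 53 for Chodl differed by less than the larger SD of the pair. For Slc5a7 and Chodl the widest gap lay within the lesion site, between NT3 on day 90 and NT3 on day 60, at 7.80 ± 0.37 against 6.61 ± 0.19 and 9.37 ± 0.53 against 7.78 ± 0.69 (SD, n = 3).

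**Figure D1:**
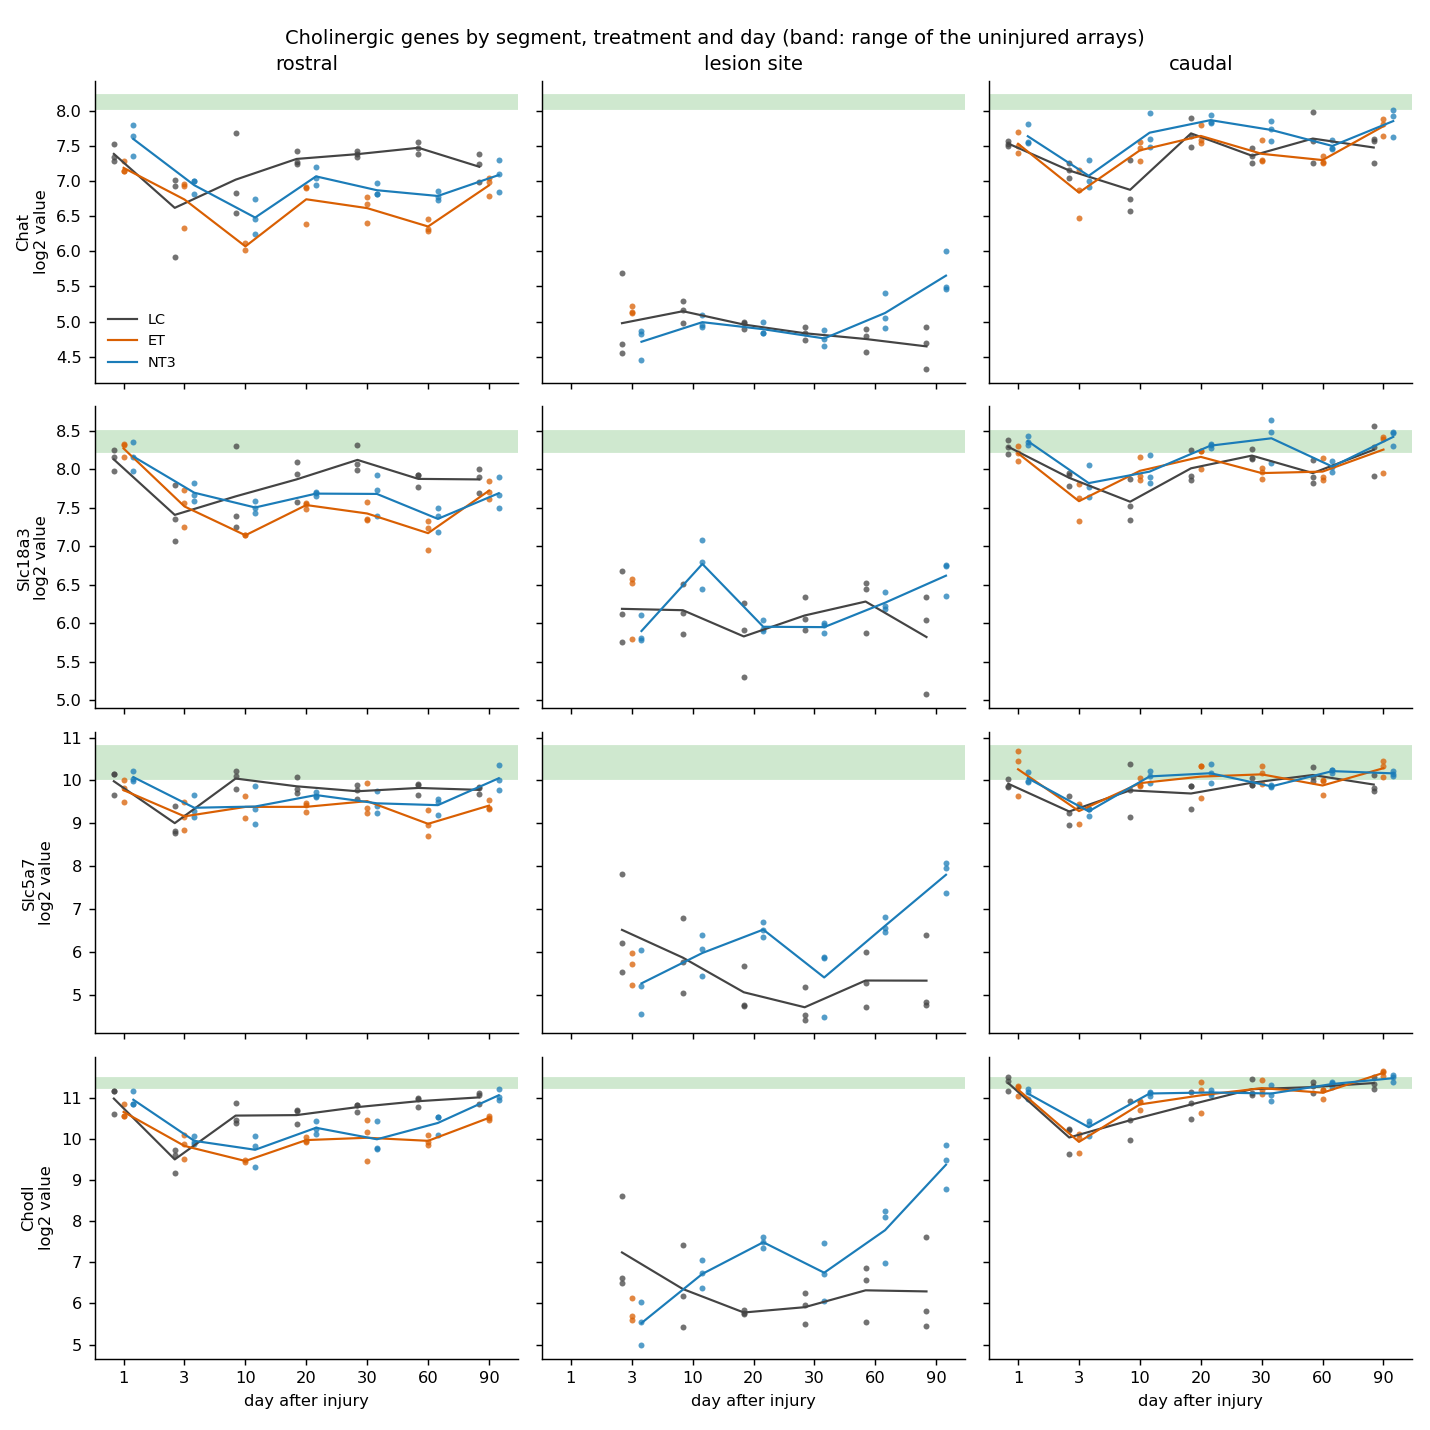
Deposited log2 value (vertical axis) of Chat, Slc18a3, Slc5a7 and Chodl by days after injury (horizontal axis) in rostral, lesion-site and caudal tissue; each point is 1 array, each line joins the group means of an arm, and the band is the range of the 3 uninjured cords. The lesion site lies below the band for each gene, Chat in rostral cord is below the band in all 62 arrays, and Slc5a7 and Chodl at the lesion site are highest in the NT3 arm on day 90, after lower values on day 30 than on day 20.

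After injury without a tube, all 4 genes fell in rostral cord in each period, and in caudal cord in the early and intermediate periods. In the early period rostral Chat fell by 1.11 ± 0.17 (adjusted p = 1.2e-07 by limma) and Chodl fell by 1.14 ± 0.16 (adjusted p = 2.6e-08), or 2.16-fold and 2.21-fold, while Slc5a7 fell by 0.92 ± 0.18 (adjusted p = 1.5e-05) and Slc18a3 fell by 0.61 ± 0.15 (adjusted p = 2.6e-04). The whole array moved as well: 67.7% of tested genes were called in this comparison and 31.8% were called lower, so that 4 of 4 members is a count against a high background. The 6 early rostral LC arrays ran from 5.91 to 7.53 for Chat with a median of 7.15, all below the lowest uninjured cord. Those of Chodl ran from 9.17 to 11.17 with a median of 10.18, also all below, whereas 5 of 6 for Slc18a3 and 4 of 6 for Slc5a7 were below. How many of all genes lay apart in this way is not given here, so these counts only describe the members. The early value of Chodl is the mean of an unlike day 1 and day 3, with rostral LC means of 10.98 and 9.50. RT1-CE10 lay below 9 in uninjured cord, above it in LC on day 1 and on both sides on day 3, at the lesion site too, so no early LC group was alike and the early differences cannot be told apart from this grouping. Of 9 tested Hox genes of cord level, 6 fell and 1 rose in the same comparison, with Hoxd10 at -2.13, Hoxa10 at -2.05 and Hoxd9 at -2.01. In late rostral LC 5 fell and 2 rose, with Hoxa10 at -2.73, and in early caudal LC 4 fell and 1 rose, with Hoxd10 at -2.08. The part of these in the differences from uninjured cord was not tested.

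By the late period the rostral differences were smaller for Chodl, at -0.42 ± 0.16 (adjusted p = 0.0255), and remained at -0.77 ± 0.17 for Chat (adjusted p = 1.2e-04), -0.51 ± 0.15 for Slc18a3 (adjusted p = 0.00288) and -0.61 ± 0.18 for Slc5a7 (adjusted p = 0.00375), with 53.6% of all genes called and 28.7% called lower. The 6 late arrays of Chat ran from 6.99 to 7.55 with a median of 7.38, and those of Chodl from 10.79 to 11.12 with a median of 10.99. All 6 lay below every uninjured cord for each of the 4 genes. How many of all genes lay apart in this way is not given here, so this only describes the members. Single uninjured cords carried some of these calls: without uninjured replicate 1, Slc5a7 stood at -0.41 (adjusted p = 0.0892) and Chodl at -0.37 (adjusted p = 0.1), and Chodl was also lost without uninjured replicate 3 (adjusted p = 0.075), LC day 60 replicate 2 (adjusted p = 0.0514) or LC day 90 replicate 1 (adjusted p = 0.0565). The intermediate differences were -0.87 for Chat, -0.50 for Slc18a3, -0.52 for Slc5a7 and -0.75 for Chodl (60.5% of genes called, 31.3% lower); without uninjured replicate 1 that of Slc5a7 was -0.32 (adjusted p = 0.151).

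In caudal LC Chodl was near the uninjured level on day 1, at 11.36 ± 0.17 against 11.39 ± 0.13 (SD, n = 3 in each), low on day 3, at 10.04 ± 0.34 (SD, n = 3), and near it again in the late period. Its 6 late arrays ran from 11.11 to 11.52 with a median of 11.32, against 11.24 to 11.49 in uninjured cord, and the difference was -0.08 ± 0.15 (adjusted p = 0.683). Chat was still lower by -0.57 ± 0.13 (adjusted p = 2.6e-04), with all 6 arrays, from 7.25 to 7.98, below the 3 uninjured cords. Slc18a3 differed by -0.28 ± 0.12 (adjusted p = 0.0487) and Slc5a7 by -0.39 ± 0.18 (adjusted p = 0.0641), in a comparison where 56.6% of all genes were called and 31.5% called lower. The call of Slc18a3 was lost when any of 6 single arrays was left out (adjusted p from 0.0562 to 0.199), and Slc5a7 was called without uninjured replicate 2 (-0.58, adjusted p = 0.0193), LC day 60 replicate 2 (adjusted p = 0.0459) or LC day 90 replicate 2 (adjusted p = 0.043). With the difference of the 3' and 5' beta-actin probe sets, a sign of RNA length, as a covariate, Chat in late caudal LC was at -0.28 (adjusted p = 0.191).

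The early and intermediate caudal differences were -0.77 and -0.81 for Chat, -0.29 and -0.46 for Slc18a3, -0.81 and -0.61 for Slc5a7, and -0.69 and -0.55 for Chodl, the early value of which is the mean of an unlike day 1 and day 3. All 8 were called, with 65.0% and 61.7% of all genes called in these periods, and 30.7% and 32.5% called lower. The early call of Slc18a3 was lost without uninjured replicate 2 (-0.23, adjusted p = 0.152), uninjured replicate 3 (adjusted p = 0.0999), LC day 1 replicate 1 (adjusted p = 0.0658) or LC day 3 replicate 3 (adjusted p = 0.0691), and the intermediate call of Slc5a7 without uninjured replicate 1 (-0.40, adjusted p = 0.076).

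At the lesion site the loss was of another size. In late LC tissue Chat was 10.6-fold, Slc18a3 5.01-fold, Slc5a7 33.7-fold and Chodl 33.9-fold below uninjured cord, with log2 differences of -3.41 ± 0.16, -2.33 ± 0.23, -5.07 ± 0.43 and -5.08 ± 0.44 (adjusted p from 1.2e-18 to 6.4e-11 by limma; 75.4% of genes called, 35.0% lower). Chat was above the 40th percentile of its array, the filter used here, in 0 of 39 lesion-site arrays, Slc18a3 in 6, Slc5a7 in 8 and Chodl in 18, so the size of these differences is bounded by the floor of the array. On day 3 the differences were already -3.13, -2.19, -3.89 and -4.15 in that order (74.3% of genes called, 33.5% lower), and in the intermediate period -3.13, -2.34, -5.19 and -5.38 (79.0% called, 37.1% lower). Against the mean of the neighbouring rostral and caudal LC segments the differences for Chat, Slc18a3, Slc5a7 and Chodl were -1.90, -1.46, -2.62 and -2.53 on day 3 (62.2% of genes called, 30.1% lower). They grew to -2.29, -1.87, -4.63 and -4.73 in the intermediate period (81.6% called, 36.2% lower) and were -2.74, -1.93, -4.57 and -4.83 late (77.0% called, 33.8% lower). All 12 were called.

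**Figure D2:**
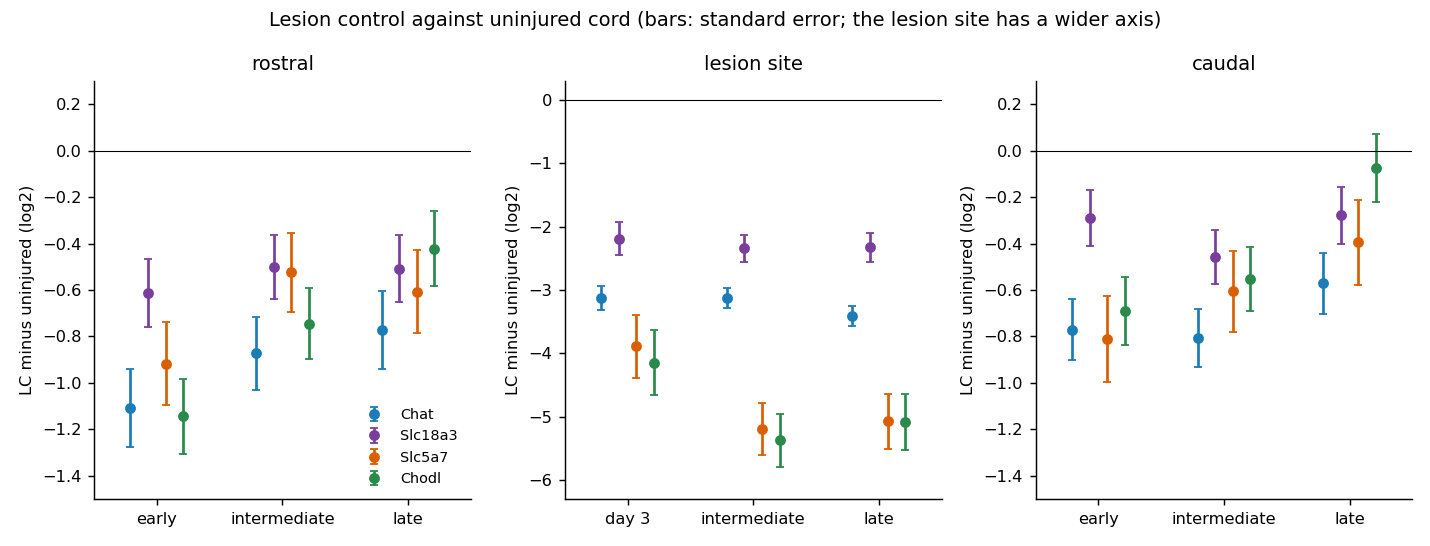
Log2 difference of LC from uninjured cord (vertical axis, with standard errors as bars) for the 4 tested genes in each period (horizontal axis), in rostral, caudal and lesion-site tissue; the lesion-site axis covers a wider range. Points in intact segments lie between -1.14 and -0.08, and those at the lesion site between -5.38 and -2.19.

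The fall of the 4 genes went with a fall of neuronal genes at large. All 16 of 16 tested genes of a general neuron list (synaptic and neurofilament genes among them) fell in LC rostrally in the early and late periods, with medians of -1.27 and -0.81, against medians of 0.03 and -0.03 over all tested genes. They also all fell late in caudal cord and at the lesion site, with medians of -0.99 and -3.68. Microglia and macrophage genes rose in the same tissue, 10 of 10 in each of these comparisons, with medians from 2.23 to 2.65.

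Each member was also set against the mean of the general neuron list in the same array. No such difference between LC and uninjured cord passed 0.05 after adjustment over 48 tests. With 6 arrays against 3, the smallest possible exact permutation p, 0.0238, had an adjusted p of 0.0687 here. Comparisons of that size could therefore hardly pass, and no likeness to the list is read from their not passing. Chat minus the list differed from uninjured cord by 0.09 rostrally in the early period and by 0.03 in the late period (exact permutation p = 0.619 and 0.762, adjusted p = 0.762 and 0.831). Slc18a3 minus the list was higher by 0.58 early and 0.30 late in rostral LC (exact two-sided permutation p = 0.0238 in each, adjusted p = 0.0687, the smallest p that 6 arrays against 3 allow being 0.0238). Caudally in the late period Chodl minus the list was higher by 0.82, again at that smallest p. Against a list of excitatory and inhibitory neuron genes instead, the sign of the difference turned for Chat, at -0.31 in early and -0.11 in late rostral LC.

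From day 1 to day 3 all 4 genes fell in both intact segments. Over the 3 arms, the 9 rostral arrays of day 1 ran from 10.57 to 11.17 for Chodl with a median of 10.85, and those of day 3 from 9.17 to 10.11 with a median of 9.87. The groups of these days did not overlap. The mean fell by 1.10 ± 0.11 (adjusted p = 4.9e-12), that of Slc5a7 fell by 0.77, of Slc18a3 fell by 0.65 and of Chat fell by 0.62, all called (49.5% of all genes called, 24.4% lower). Caudally Chodl fell by 1.14 ± 0.10 (adjusted p = 4.0e-14), Slc5a7 fell by 0.80, Chat fell by 0.55 and Slc18a3 fell by 0.52, again all called (59.5% of genes called, 28.5% lower). Chodl fell further than the general neuron list, at -0.64 rostrally (exact permutation p = 4.11e-05, adjusted p = 6.58e-04 over 16 tests) and -0.54 caudally (exact permutation p = 9.05e-04, adjusted p = 0.00483); for the other 3 genes these tests had adjusted p above 0.05. In NT3, whose intact segments had RT1-CE10 below 9 on both days, rostral Chodl went from 10.96 to 9.96 and rostral Chat from 7.60 to 6.94.

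Day 3 was not the lowest day throughout. On day 10 rostral Chat was lower than on day 3 in NT3, at 6.48, and in ET, at 6.07 against 6.74. Rostral Chodl was lower too, at 9.74 in NT3, and at 9.47 in ET against 9.83. In caudal LC Chat stood at 6.87 on day 10 and 7.15 on day 3.

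From day 3 to the late period all 4 genes rose in caudal cord and 2 of 4 in rostral cord. In caudal cord the mean of the 3 arms rose by 1.28 ± 0.08 for Chodl (adjusted p = 2.3e-18), 0.82 ± 0.11 for Slc5a7, 0.56 ± 0.08 for Chat and 0.38 ± 0.07 for Slc18a3, all called (68.1% of all genes called, 28.9% higher). In rostral cord Chodl rose by 0.88 ± 0.09 (adjusted p = 2.5e-11) and Slc5a7 by 0.40 ± 0.10 (adjusted p = 7.5e-04), while Chat differed by 0.21 ± 0.10 (adjusted p = 0.0582) and Slc18a3 by 0.07 ± 0.08 (adjusted p = 0.461), with 63.1% of all genes called and 27.1% called higher. Chat passed when any of 7 single arrays was left out (adjusted p from 0.015 to 0.0483). The late caudal arrays of Chodl, 18 over the arms, ran from 10.98 to 11.66 with a median of 11.38, close to the uninjured range.

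Within LC alone, late minus early, Chodl rose by 0.72 ± 0.13 rostrally (adjusted p = 7.9e-06) and by 0.61 ± 0.12 caudally (adjusted p = 2.0e-05), with 58.2% of genes called in each segment, 25.6% and 22.7% called higher. Chat rose rostrally by 0.34 ± 0.14 (adjusted p = 0.0329), a call that 6 single arrays carried. Without LC day 3 replicate 3, whose Chat value of 5.91 lay below the 7.02 and 6.92 of its group, the difference was 0.16 (adjusted p = 0.283). Caudally Slc5a7 rose by 0.42 ± 0.15 (adjusted p = 0.0161), and did not pass without LC day 3 replicate 3 (0.34, adjusted p = 0.0658) or LC day 90 replicate 2 (0.36, adjusted p = 0.0525), while Chat passed without LC day 60 replicate 3 (0.29, adjusted p = 0.0243). At the lesion site Slc5a7 in LC fell further from day 3 to the late period, by -1.18 ± 0.43 (adjusted p = 0.0211; 53.6% of genes called, 30.0% lower). That rested on day 3 replicate 1, which read 7.82 against 6.20 and 5.53: without it the difference was -0.53 (adjusted p = 0.345). The call was also lost without day 60 replicate 3 (adjusted p = 0.0529) or day 90 replicate 1 (adjusted p = 0.0513). Chodl, at -0.94 (adjusted p = 0.0761), passed without day 3 replicate 2 (adjusted p = 0.0309), day 3 replicate 3 (adjusted p = 0.0446) or day 90 replicate 3 (adjusted p = 0.0115).

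The tube arms were also set against uninjured cord in the late period, rostrally. In NT3, Chat stood at -1.18, Slc18a3 at -0.86, Slc5a7 at -0.67 and Chodl at -0.66, all called (56.5% of genes called, 31.5% lower). In ET they stood at -1.47, -0.93, -1.21 and -1.15, all called as well (63.7% of genes called, 34.1% lower). These share the uninjured arrays with the LC comparison and with each other.

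The empty tube went with lower levels of all 4 genes in rostral cord. Over the 7 days, ET minus LC was -0.54 ± 0.07 for Chat (adjusted p = 8.2e-07), -0.30 ± 0.06 for Slc18a3 (adjusted p = 5.0e-04), -0.37 ± 0.08 for Slc5a7 (adjusted p = 5.1e-04) and -0.56 ± 0.07 for Chodl (adjusted p = 1.7e-07). These are falls of 1.45-fold, 1.24-fold, 1.30-fold and 1.47-fold, in a comparison where 22.8% of tested genes were called and 14.9% called lower. Among all tested genes, Chodl and Chat stood at the 0.01 and 0.02 percentiles of the difference, near its lower end.

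The rostral difference varied between days. On day 60 Chat read 7.39, 7.47 and 7.55 in rostral LC and 6.31, 6.28 and 6.46 in ET, and Chodl 10.97, 10.79 and 11.01 in LC and 10.09, 9.92 and 9.86 in ET. The arms did not overlap for either gene on that day. Day by day from day 1 to day 90, ET minus LC for Chat was -0.20, 0.12, -0.95, -0.57, -0.77, -1.12 and -0.26, with no overlap on 5 of 7 days, and for Chodl -0.32, 0.33, -1.10, -0.61, -0.75, -0.96 and -0.50, likewise on 5 of 7. Slc18a3 and Slc5a7 did not overlap on 4 of 7 days each. The share of all genes without overlap is not given here, so these counts only describe the members. Chat did not overlap on day 1 and overlapped on days 3 and 90. The difference changed with the day for Chat (moderated F = 5.07, adjusted p = 0.00586), Slc18a3 (F = 4.35, adjusted p = 0.0123) and Chodl (F = 6.10, adjusted p = 0.00204), but not past the threshold for Slc5a7 (F = 2.41, adjusted p = 0.116; 0.0413 without LC day 3 replicate 2), with 22.7% of all genes called by this test. Over the 4 days of like RT1-CE10, days 1, 10, 20 and 30, the falls were -0.62, -0.35, -0.39 and -0.70 for Chat, Slc18a3, Slc5a7 and Chodl, all called. Over these fewer days the change with the day was not called for any of the 4 (moderated F, adjusted p from 0.0707 to 0.579).

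In the same rostral comparison 15 of 16 general neuron genes fell, with a median of -0.27, and 7 of 13 skeletal muscle genes rose, with a median of 0.66. The muscle list ran from 5.83 to 10.52 over the 20 rostral ET arrays and from 5.95 to 8.32 over the 21 LC arrays; with its mean as a covariate each of the 4 genes was still called. Relative to the general neuron list, Chat differed by -0.26 in ET (permutation p = 8.2e-04, adjusted p = 0.00483) and Chodl by -0.28 (permutation p = 0.0115, adjusted p = 0.0458), both from 100000 resamples of 20 and 21 arrays. For Slc18a3 and Slc5a7 the values were -0.04 and -0.13 (permutation p = 0.547 and 0.145). Against the excitatory and inhibitory list Chodl differed by -0.29 (permutation p = 0.0341, adjusted p = 0.091).

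NT3 in rostral cord gave a smaller difference from LC, and of the 4 genes Chodl passed the test. NT3 minus LC was -0.28 ± 0.07 for Chodl (adjusted p = 0.0221), -0.22 ± 0.07 for Chat (adjusted p = 0.0764), -0.16 ± 0.06 for Slc18a3 (adjusted p = 0.146) and -0.12 ± 0.08 for Slc5a7 (adjusted p = 0.429); 2.77% of all genes were called and 1.61% called lower. In a fit of all arrays together Chodl had an adjusted p of 0.177. Chat passed without LC day 3 replicate 3 (-0.27, adjusted p = 0.0126) or LC day 10 replicate 2 (-0.26, adjusted p = 0.0408), and on the 4 days of like RT1-CE10 (-0.50, adjusted p = 0.0068). On day 60 Chat read 6.73, 6.86 and 6.77 in NT3, between the ET and LC values of that day and overlapping neither.

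The sign of the rostral NT3 difference was not the same on all days. For Chat it was 0.21 and 0.32 on days 1 and 3, then -0.54, -0.25, -0.51, -0.68 and -0.12. For Chodl it was -0.03 and 0.45, then -0.83, -0.31, -0.78, -0.53 and 0.05; the 3 Chodl values of day 90 were 11.02, 10.95 and 11.22 in NT3 and 10.85, 11.07 and 11.12 in LC. The change with the day was called for Chodl (F = 6.31, adjusted p = 0.00159), Chat (F = 3.96, adjusted p = 0.0174) and Slc5a7 (F = 3.19, adjusted p = 0.041), in a test that called 28.2% of all genes. That of Slc5a7 was lost when any of 19 single arrays was left out (adjusted p from 0.0506 to 0.0924), and Slc18a3 (F = 2.64, adjusted p = 0.0761) was gained without LC day 10 replicate 1 (adjusted p = 0.0081), LC day 10 replicate 2 (adjusted p = 0.0445) or LC day 3 replicate 2 (adjusted p = 0.0184). On the 4 days of like RT1-CE10, which leave out days 1, 3 and 90, no change with the day was called for any of the 4 genes (adjusted p from 0.574 to 0.751). Of 9 Hox genes 2 rose, Hoxa10 by 0.66 and Hoxa9 by 0.42. In the general neuron list limma called 0 of 16 genes, with 2 of 16 at an unadjusted p under 0.05 and a median of 0.04. Relative to that list Chat differed by -0.27 (permutation p = 1.4e-04, adjusted p = 0.00672) and Slc18a3 by -0.21 (permutation p = 0.00132, adjusted p = 0.0317).

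Set directly against each other, NT3 stood above ET in rostral cord for Chat by 0.31 ± 0.07 (adjusted p = 0.00121), for Chodl by 0.28 ± 0.07 (adjusted p = 0.00277) and for Slc5a7 by 0.26 ± 0.08 (adjusted p = 0.0113). Slc18a3 differed by 0.14 ± 0.06 (adjusted p = 0.0929; 0.0493 without NT3 day 30 replicate 3). In this comparison 30.2% of all genes were called and 17.4% called higher, 15 of 16 general neuron genes among them with a median of 0.30. It shares its arrays with the comparisons against LC and is no further evidence for them. In a fit of all arrays Slc5a7 and Chodl did not pass (adjusted p = 0.1 and 0.0714), and Slc5a7 did not on the days of like RT1-CE10 (0.21, adjusted p = 0.117).

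**Figure D3:**
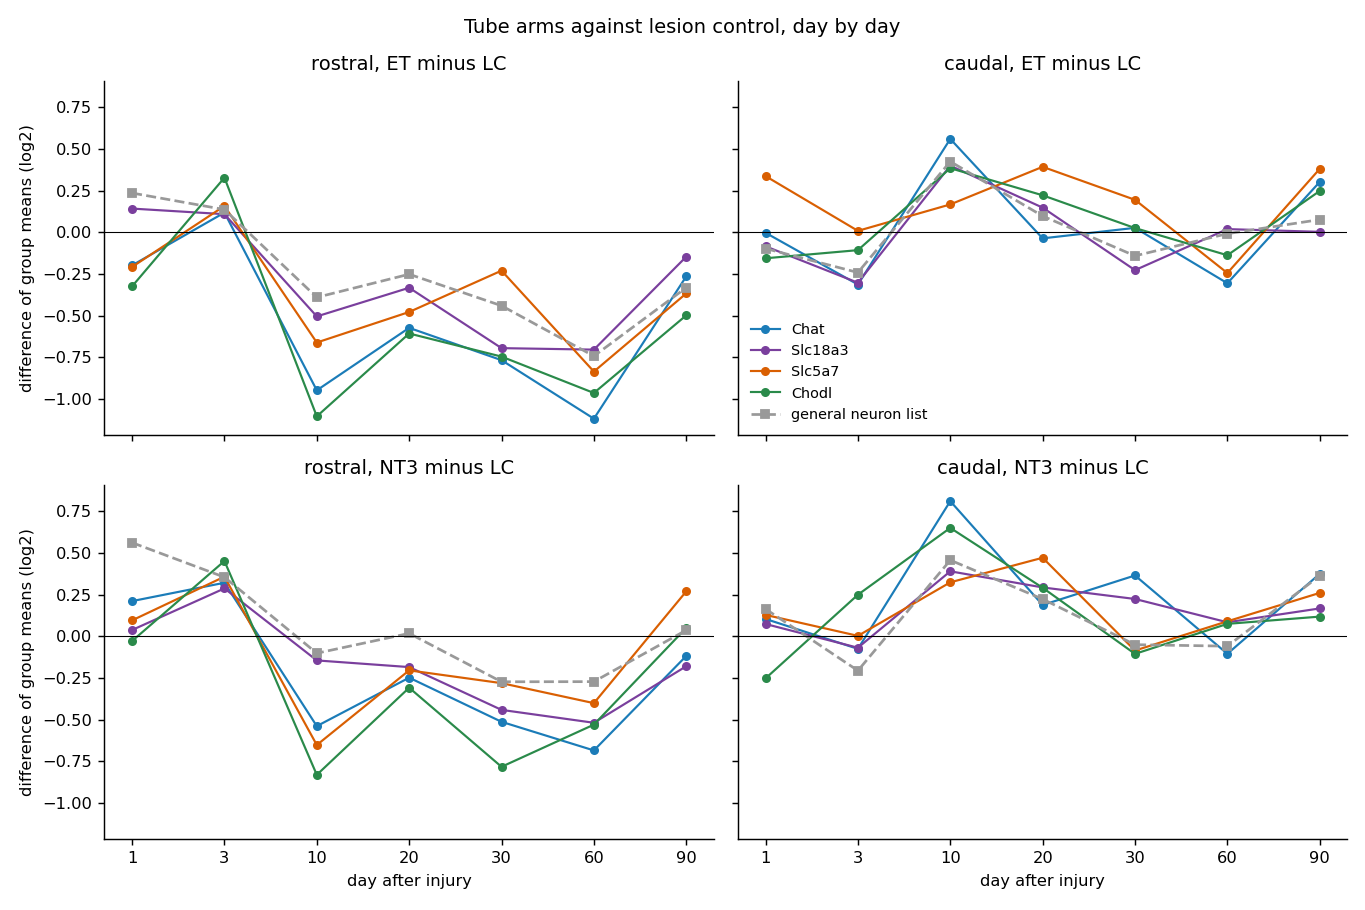
Log2 difference from LC of the same day (vertical axis) for the ET and NT3 arms by days after injury (horizontal axis, evenly spaced), in rostral and caudal cord, for the 4 tested genes and the mean of the general neuron list; points are differences of group means. Rostral Chat is lowest in ET on day 60, at -1.12, and caudal Chat is highest in NT3 on day 10, at 0.81.

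In caudal cord the signs were different. NT3 minus LC was 0.24 ± 0.06 for Chat (adjusted p = 0.00687) and 0.17 ± 0.05 for Slc18a3 (adjusted p = 0.0382), both called. For Slc5a7 it was 0.17 ± 0.08 (adjusted p = 0.168) and for Chodl 0.15 ± 0.06 (adjusted p = 0.132), with 9.76% of all genes called and 5.91% called higher. On day 10 Chat read 7.97, 7.60 and 7.48 in NT3 and 6.74, 7.30 and 6.58 in LC, without overlap. That day gave the largest of the daily differences, 0.10, -0.07, 0.81, 0.19, 0.37, -0.10 and 0.38 from day 1 to day 90 (F = 4.29, adjusted p = 0.0327; 7.18% of genes called). The call of the change with the day was lost when any of 7 single arrays was left out (adjusted p from 0.0513 to 0.0986) and on the days of like RT1-CE10 (adjusted p = 0.182). That of the mean of Slc18a3 was lost when any of 18 was left out (adjusted p from 0.0501 to 0.079). Without LC day 10 replicate 2 all 4 genes were called, Slc5a7 at 0.21 (adjusted p = 0.0485) and Chodl at 0.18 (adjusted p = 0.0368).

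Other lists moved with the caudal NT3 difference. Of 9 Hox genes of cord level 3 rose and 0 fell, with Hoxd9 at 0.89 (adjusted p = 4.8e-05) and Hoxa10 at 0.74 (adjusted p = 5.6e-04). On day 10 Hoxa10 differed by 1.53, without overlap. Of 16 general neuron genes 4 rose, among them the chloride transporter gene Slc12a5 at 0.26, Cplx1 at 0.21 and Nefl at 0.18, with a list median of 0.11. Relative to that list the 4 members differed by 0.02 to 0.11 (permutation p from 0.168 to 0.87). The part of cord level in the result was not tested.

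For caudal ET minus LC none of the 4 genes was called by limma, with values from -0.01 for Slc18a3 to 0.18 for Slc5a7 (adjusted p from 0.173 to 0.956, with 1 of 4 at an unadjusted p under 0.05; 3.5% of all genes called). By day Chat was called (F = 4.23, adjusted p = 0.0405; 5.76% of genes called), a call lost when any of 17 single arrays was left out (adjusted p from 0.0508 to 0.0918). NT3 minus ET was 0.20 ± 0.06 for Chat (adjusted p = 0.0234) and 0.17 ± 0.05 for Slc18a3 (adjusted p = 0.0368), with 8.38% of genes called and 4.65% called higher, and that of Slc18a3 was lost when any of 15 single arrays was left out (adjusted p from 0.0508 to 0.0711).

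The difference between the segments was tested in a fit of both. ET minus LC was lower rostrally than caudally for all 4 genes, by -0.57 ± 0.10 for Chat (adjusted p = 1.7e-04), -0.30 ± 0.09 for Slc18a3 (adjusted p = 0.0129), -0.55 ± 0.11 for Slc5a7 (adjusted p = 8.6e-04) and -0.63 ± 0.10 for Chodl (adjusted p = 4.3e-05); 12.4% of all genes were called and 9.1% called lower. For NT3 minus LC, 13 of 12041 genes were called, 0.108%, and 0.0914% called lower, and Chat, at -0.46 ± 0.10 (adjusted p = 0.0158), and Chodl, at -0.43 ± 0.10 (adjusted p = 0.0383), were among them. Slc18a3 at -0.33 ± 0.08 (adjusted p = 0.115) and Slc5a7 at -0.29 ± 0.11 (adjusted p = 0.4) were not. The neurofilament gene Nefh, at -0.31 (adjusted p = 0.0383), and the position gene Hoxd9, at -0.78 (adjusted p = 0.0459), were in the same set. The call of Chodl was lost when any of 36 single arrays was left out (adjusted p from 0.0509 to 0.0729), and that of Chat was kept in each of these refits. Slc18a3 passed without caudal LC day 10 replicate 2, caudal LC day 90 replicate 3, rostral LC day 3 replicate 3 or rostral LC day 10 replicate 2 (adjusted p from 0.0349 to 0.0499). Over the days of like RT1-CE10 all 4 genes were called, at -0.81, -0.57, -0.59 and -0.84 for Chat, Slc18a3, Slc5a7 and Chodl.

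Rostral minus caudal within an arm gives the same contrast as levels. In LC the values were -0.18 for Chat, -0.18 for Slc18a3, -0.06 for Slc5a7 and -0.31 ± 0.07 for Chodl. Chodl was called (adjusted p = 0.01; 0.507% of genes called, 0.116% lower), though not on the days of like RT1-CE10 (-0.27, adjusted p = 0.0615). Without rostral LC day 10 replicate 1, whose Chat value of 7.68 stood above the 6.54 and 6.83 of its group, Chat was called at -0.23 (adjusted p = 0.0362) and Slc18a3 at -0.22 (adjusted p = 0.0133). In NT3 the values were -0.64, -0.51, -0.34 and -0.74 for Chat, Slc18a3, Slc5a7 and Chodl, and in ET -0.75, -0.47, -0.61 and -0.94, all 8 called, with 7.3% and 33.1% of all genes called and 4.19% and 19.4% called lower. Hoxa10 was lower rostrally than caudally in LC as well, at -1.25 (adjusted p = 5.87e-11).

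At the lesion site Slc5a7 and Chodl were higher in NT3 than in LC. Over the 6 days, NT3 minus LC was 0.79 ± 0.20 for Slc5a7 (adjusted p = 0.00204) and 0.96 ± 0.21 for Chodl (adjusted p = 4.2e-04), against 0.14 ± 0.08 for Chat (adjusted p = 0.155) and 0.18 ± 0.11 for Slc18a3 (adjusted p = 0.185); 41.9% of all genes were called and 19.0% called higher. On days 60 and 90 together the differences were 0.69 ± 0.13 for Chat (adjusted p = 1.6e-04), 1.87 ± 0.35 for Slc5a7 (adjusted p = 1.3e-04) and 2.27 ± 0.36 for Chodl (adjusted p = 1.8e-05), with 0.39 ± 0.19 for Slc18a3 (adjusted p = 0.0949; 37.7% of genes called, 14.9% higher). Chat passed the filter in 0 of 18 NT3 and 0 of 18 LC arrays and entered the test through the other tissues; Slc5a7 passed it in 6 and 2 of them, and Chodl in 13 and 5. These differences are therefore read at or near the floor of the array, and no fold is given. For Chat, no difference between the arms is read from the adjusted p. Chat over all days was called without LC day 3 replicate 1 (0.20, adjusted p = 0.00764), and Slc18a3 late without LC day 90 replicate 3 (0.52, adjusted p = 0.028).

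Day 90 carried the largest values. Chodl read 9.85, 8.80 and 9.48 in NT3 and 5.81, 5.45 and 7.62 in LC, and Slc5a7 8.07, 7.38 and 7.96 in NT3 and 4.77, 4.83 and 6.40 in LC. Chat read 6.01, 5.46 and 5.49 against 4.33, 4.69 and 4.92, and Slc18a3 6.74, 6.36 and 6.75 against 6.05, 5.08 and 6.34. None of the 4 genes overlapped between the arms on that day, though all NT3 arrays of Chat stayed below the 40th percentile. The share of all genes without overlap is not given here, and 37.7% of genes were called late, so this count only describes the members. On day 3 the order was turned for Chodl, at 6.04, 5.54 and 4.99 in NT3 against 8.61, 6.49 and 6.62 in LC, and 5.70, 5.60 and 6.13 in ET. By day the difference for Chodl was -1.72, 0.37, 1.71, 0.84, 1.46 and 3.08 from day 3 to day 90 (F = 9.76, adjusted p = 1.5e-04), and for Slc5a7 -1.25, 0.11, 1.46, 0.69, 1.27 and 2.47 (F = 6.55, adjusted p = 0.00167). The test was also called for Chat (F = 6.52, adjusted p = 0.00173), but on values all below the filter, so whether Chat changed is not read from it. Slc18a3 was at F = 2.70 (adjusted p = 0.0684), and 50.6% of all genes were called by this test. Slc18a3 was called when any of 5 single LC arrays was left out (adjusted p from 0.023 to 0.0473).

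RT1-CE10 was alike in both arms on day 60 of the late days and on days 10, 30 and 60 overall. On those days Chodl was at 0.89 (adjusted p = 0.0221) overall and 1.46 (adjusted p = 0.0358) late, and Slc5a7 at 0.69 (adjusted p = 0.0661) and 1.27 (adjusted p = 0.0566). Late Chat on day 60 was at 0.37 (adjusted p = 0.139). The change with the day was called for none of the 4 on days 10, 30 and 60.

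Late NT3 tissue stood below uninjured cord for all 4 genes, by 6.60-fold for Chat, 3.83-fold for Slc18a3, 9.21-fold for Slc5a7 and 7.02-fold for Chodl (71.9% of all genes called, 36.5% lower). The floor bounds these folds as well. Neuronal genes moved alongside: 14 of 16 general neuron genes rose over all days, with a median of 1.00, and 14 of 16 late, with a median of 1.84. Relative to the general neuron list, Chodl and Slc5a7 differed between the arms by 0.11 and -0.05 (permutation p = 0.655 and 0.749). Chat and Slc18a3, near the floor, differed from the list by -0.71 and -0.67 (permutation p = 0.00896 and 0.0243, adjusted p = 0.0521 and 0.0687).

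Lists drawn up for other tissue moved with this comparison. All 7 of 7 genes of a dorsal root ganglion neuron list rose in NT3, with a median of 1.05, and 13 of 13 skeletal muscle genes rose, with a median of 2.05. Prph and Calca, at 1.36 and 1.66, are in the dorsal root ganglion list and also in the motor neuron effector list below. The dorsal root ganglion list therefore does not mark sensory neurons outside the cord alone. The dorsal root ganglion list ran from 6.62 to 10.27 over the 18 NT3 arrays, from 6.55 to 9.34 over the 18 LC arrays, and from 7.46 to 7.61 in uninjured cord; the muscle list ran from 6.72 to 10.76, from 5.48 to 9.80 and from 6.42 to 6.59. With the dorsal root ganglion list as a covariate Chodl was at 0.95 (adjusted p = 0.0194) and Slc5a7 at 0.59 (adjusted p = 0.136), and late at 2.27 (adjusted p = 0.00295) and 1.55 (adjusted p = 0.0279). With the muscle list as a covariate Chodl was at 0.67 (adjusted p = 0.145) and Slc5a7 at 1.12 (adjusted p = 0.0109). How far the dorsal root ganglion covariate takes up motor neuron signal was not tested. Both lists were higher in the arm in which the members were higher, and beyond these fits their part in the result was not tested.

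**Figure D4:**
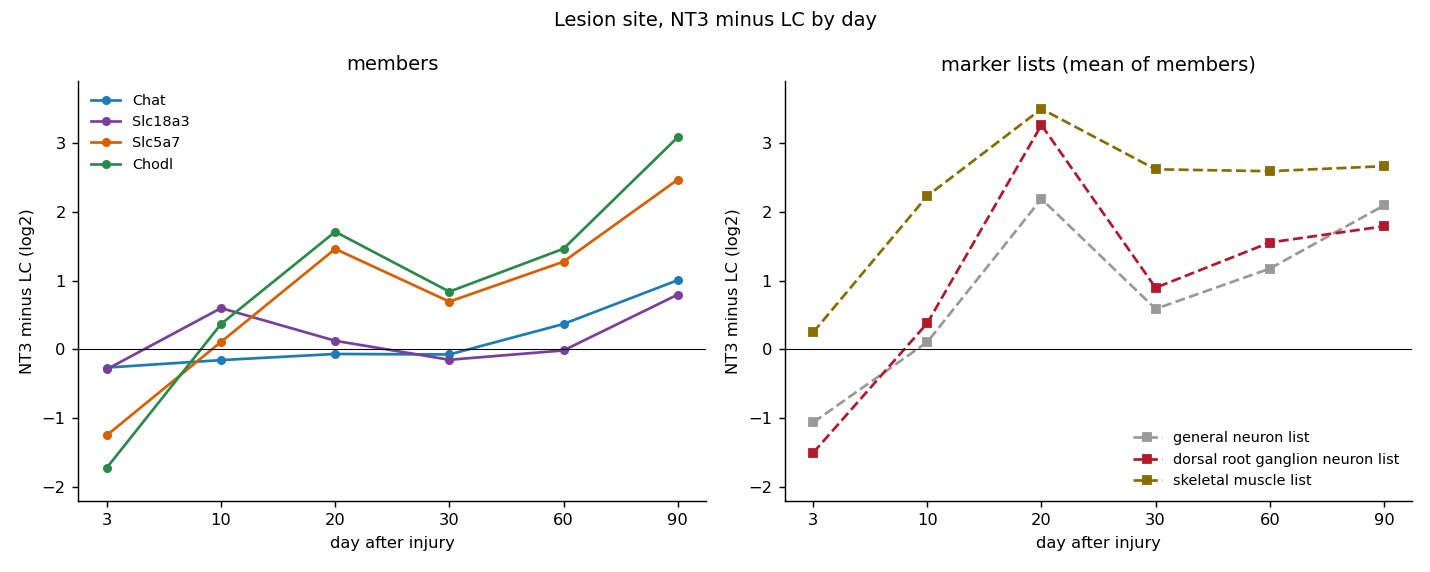
Log2 difference of NT3 from LC at the lesion site (vertical axis) by days after injury (horizontal axis), for the 4 tested genes and for the means of the general neuron, dorsal root ganglion neuron and skeletal muscle lists; points are differences of group means. Chodl goes from -1.72 on day 3 to 3.08 on day 90, and Chat lies between -0.26 and -0.07 up to day 30.

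Other genes of acetylcholine handling are given for the same comparisons. Of acetylcholine breakdown and choline supply, 4 genes were tested. Chka, a choline kinase that draws choline into phospholipid, was at -0.37 in early and -0.44 in late rostral LC, and Slc44a2, a choline transporter-like gene, rose late by 0.59 rostrally and 0.57 caudally. Bche and Colq, for butyrylcholinesterase and the collagen tail that anchors cholinesterase, were below the filter. Of 12 tested acetylcholine receptor genes 0 rose and 3 fell in early rostral LC, led by the neuronal nicotinic subunit Chrna4 at -0.69 (adjusted p = 2.5e-06) and the muscarinic receptor Chrm3 at -0.49. Of all tested genes 31.8% were called lower there, so 3 of 12 is not above the share over the array. In late caudal LC, where 31.5% of all genes were called lower, Chrna4 alone fell, at -0.83 (adjusted p = 1.6e-09). In rostral ET against LC, 3 receptor genes rose and 0 fell: Chrna1 by 0.22, Chrnd by 0.17 and Chrng by 0.13, all subunits of the muscle receptor. Of all tested genes 22.8% were called there, 951 genes higher and 1790, or 14.9%, lower. Some skeletal muscle genes also rose in that comparison, as given above, and their part in these receptor values was not tested. At the lesion site NT3 minus LC gave 5 higher and 0 lower, led by Chrna1 at 1.14 and the ganglionic subunit Chrna3 at 1.08, with 41.9% of all genes called and 19.0% called higher.

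Of 8 tested transcription factor genes of motor neurons, 6 fell and 1 rose in early rostral LC, and 4 fell in late caudal LC. Of all tested genes, 31.8% and 31.5% were called lower in these comparisons. Esrrg, an orphan nuclear receptor known from gamma motor neurons, fell most, at -1.77 in early rostral LC (adjusted p = 1.8e-15) and -5.14 in late lesion-site LC. Etv4 and Etv1, ETS factors of motor pools and sensory neurons, were at -0.98 and -0.64 in late rostral LC, and Foxp1, a factor of limb motor columns, was higher by 0.58 in early rostral LC. In rostral ET against LC, Esrrg was at -0.33 (adjusted p = 1.2e-04) and Foxp1 at 0.39 (adjusted p = 5.6e-06).

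Of 16 tested motor neuron effector genes, 6 rose and 5 fell in early rostral LC. Among all 12041 tested genes, 4332 were called higher and 3825, or 31.8%, lower there, so these counts are near the shares over the array. The neurofilament gene Nefh was at -1.17 and the vesicle protein gene Sv2a at -1.30, whereas Mmp9, a metalloprotease, rose by 2.84 and Spp1, for osteopontin, by 2.39. Mmp9 and Spp1 are also made by microglia and macrophages, whose list rose in the same arrays. In rostral ET against LC 2 rose and 4 fell, led by Uts2, for urotensin 2, at -0.60 (adjusted p = 4.0e-05) and Nefh at -0.35 (adjusted p = 5.9e-06). Among all 12041 tested genes, 951 were called higher and 1790 lower there. In caudal NT3 against LC, with 9.76% of all genes called, Spp1 was at -0.36 (adjusted p = 0.00302 by limma). Prph rose there by 0.26 (adjusted p = 0.0112) and Nefh by 0.25 (adjusted p = 2.1e-04). In rostral NT3 against LC, where 2.77% of all genes were called, limma called 0 of 16 after adjustment and 4 of 16 had an unadjusted p under 0.05.

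Isl1 gave no measurement above the filter in any array. Its probe set ran from 4.61 to 6.28 with a mean of 5.12, at the 17.6th percentile of probe-set means. Another probe set for the gene ran from 3.76 to 4.74. In uninjured cord Isl1 read 5.12, 4.86 and 4.88. Its 3 highest groups were lesion-site NT3 on day 20, at 5.34, 6.15 and 6.28, on day 60, at 5.87, 6.27 and 5.19, and on day 90, at 6.27, 5.15 and 5.51. Of 55 neighbouring pairs in its order of groups, all 55 differed by less than the larger SD. The groups with the highest Isl1 were also high in the dorsal root ganglion list, at 9.88 on day 20, 9.57 on day 60 and 9.60 on day 90, against 7.51 in uninjured cord. All of these Isl1 values lie below the filter, so no order of groups and no likeness to other genes is read from them.

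**Figure D5:**
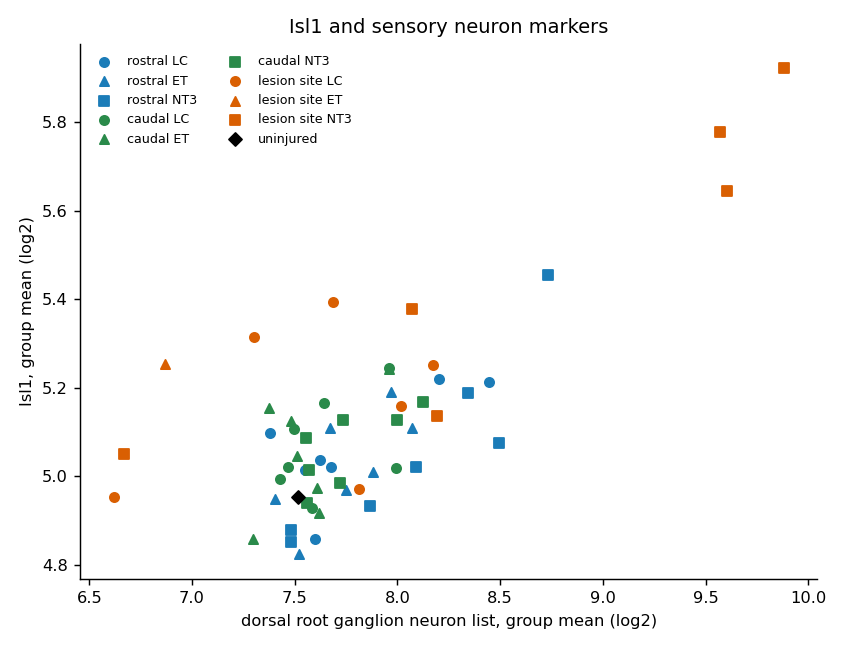
Group mean of Isl1 (vertical axis, log2) against group mean of the dorsal root ganglion neuron list (horizontal axis, log2) for the 56 groups, marked by segment. The 3 groups at the top right, lesion-site NT3 on days 20, 60 and 90, have Isl1 at 5.92, 5.78 and 5.64, below the filter.

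The genes most like each of the 4 were looked for over the 43 group means of rostral, caudal and uninjured cord, as Pearson correlations of log2 values. Nearest to Chat were Nefm (r = 0.93), Slc35d3 (r = 0.93) and Slc18a3 (r = 0.92), and nearest to Slc18a3 were Slc35d3 (r = 0.93) and Chat. Nearest to Slc5a7 were Chodl (r = 0.90) and Gabra5 (r = 0.90), and nearest to Chodl were Nefl (r = 0.92) and Prmt8 (r = 0.91). Between Chat or Slc18a3 on one side and Slc5a7 or Chodl on the other, r ran from 0.76 to 0.89. Nefm, Nefl and Nefh encode the neurofilament subunits of large axons. Groups share days, arrays of 1 platform and the drop against uninjured cord, so these are descriptions only. Over all 56 groups, with the lesion site, Chat was nearest to Slc18a3 (r = 0.98) and Chodl to Slc5a7 (r = 0.98).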

How the data were processed

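Total RNA was extracted with Trizol and RNEasy and hybridised as biotin-labelled cRNA, per the labels' protocols. The authors' deposited values are log2 intensities; GCOS, RMA and Affymetrix Expression Console are named in the submitters' processing notes, with no versions. The values were used as deposited. Of 31099 probe sets, 20832 carried 1 gene symbol, giving 14218 genes, each read from its probe set with the highest mean. Genes above the 40th percentile of an array in at least 3 arrays were tested, 12041 in all, with array medians from 7.10 to 7.25. limma 3.58.1 in R 4.3.3 fitted each segment with a mean per group, and the code was tested on simulated data. Permutation tests used scipy 1.17.1. RefSeq promoters of assembly GRCr8 were searched for motifs.

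The members and gene lists were chosen with earlier results of these data known. Named list genes are the called ones with the largest differences, at most 4 per list and comparison; genes most alike, given for the 4 tested members, are those with the highest Pearson correlation of group means. Alternatives were filters, normalization, probe-set means, pooled or separate fits, array weights, a replicate block, beta-actin and muscle covariates, days of like RT1-CE10 and leaving out arrays. The segment contrasts, ET by day, single-day, late lesion-site and tube-arm contrasts and the dorsal root ganglion covariate were chosen after seeing the data.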

Additional observations from a re-analysis of the deposited data

Results flagged for a closer look

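The difference between arms changed with the day in rostral cord for NT3 minus LC, with moderated F of 3.96 for Chat, 3.19 for Slc5a7 and 6.31 for Chodl, and for ET minus LC, with F of 5.07 for Chat, 4.35 for Slc18a3 and 6.10 for Chodl. In caudal cord Chat alone did so, with F of 4.29 for NT3 and 4.23 for ET. At the lesion site F was 6.52 for Chat, 6.55 for Slc5a7 and 9.76 for Chodl for NT3 minus LC. Chat was above the filter in 0 of 39 lesion-site arrays, so its F there comes from values below the filter, and whether Chat changed is not read from it. None of these F values was called on the days on which the arms had like RT1-CE10.

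The difference between arms also differed between rostral and caudal cord. For NT3 minus LC the contrast of the segments was -0.46 for Chat and -0.43 for Chodl, and for ET minus LC it was -0.57 for Chat, -0.30 for Slc18a3, -0.55 for Slc5a7 and -0.63 for Chodl. The adjusted p of each, by limma, is given with the comparison above.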

How the results depend on the processing

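Of 2460 values of the 4 genes under other settings, 2316 kept direction and side of the threshold, 73 lost a call, 59 gained one and 12 changed sign, none of them a called value; the causes were not tested.

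Counts of the 4 genes called moved as follows. In 1 fit of all arrays they were 2 for rostral LC late minus uninjured, 1 for caudal LC late minus uninjured, caudal NT3 minus LC, rostral NT3 minus ET, caudal NT3 minus ET, caudal LC late minus early, rostral NT3 by day and the NT3 segment contrast, 0 for rostral NT3 minus LC, rostral minus caudal LC, and NT3 and ET by day caudally, and 2 for lesion-site LC late minus day 3. With the compared groups alone they were 1 for caudal LC late minus uninjured and 0 for lesion-site LC late minus day 3, rostral minus caudal LC and caudal ET by day. Without the filter, with 75th percentile scaling, with the replicate block and with the beta-actin covariate, caudal LC late minus uninjured had 1. Quantile normalization and 75th percentile scaling left 1 in the NT3 segment contrast. Array weights gave 1 for caudal ET minus LC, 4 for rostral LC late minus early, 2 for lesion-site LC late minus day 3, 3 for rostral minus caudal LC and for caudal ET by day, and 4 for the NT3 segment contrast. The muscle covariate left 1 for lesion-site NT3 minus LC and caudal NT3 minus ET, and the dorsal root ganglion covariate 1 for lesion-site NT3 minus LC. On days of like RT1-CE10 they were 2 for rostral NT3 minus LC, 1 for lesion-site NT3 minus LC overall and late, 0 for rostral minus caudal LC and for every test by day, and 4 for the NT3 segment contrast.

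Leaving out single arrays, the lowest and highest counts were 2 for rostral LC late (lowest), 1 for caudal LC late (lowest), 2 for rostral NT3 minus LC (highest), 1 to 4 for caudal NT3 minus LC, 1 for caudal NT3 minus ET, for rostral and caudal LC late minus early and for the NT3 segment contrast (lowest), 0 to 3 for lesion-site LC late minus day 3, 3 for rostral minus caudal LC (highest), and 0 to 2 for NT3 and ET by day caudally.

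Signs turned for uncalled values: caudal NT3 minus ET of Slc5a7 at 0.0244 with the muscle covariate and from -0.0503 to 0.0235 without 1 array; caudal ET minus LC of Slc18a3 at 0.0327 with array weights, 0.0178 with the muscle covariate, 0.0594 on days of like RT1-CE10 and from -0.0303 to 0.0158 without 1 array; caudal LC late minus early of Slc18a3 at -0.0282 with array weights, -0.0101 with the muscle covariate and from -0.0648 to 0.0966 without 1 array; lesion-site LC late minus day 3 of Chat from -0.4861 to 0.0775 and Slc18a3 from -0.3475 to 0.1082 without 1 array; and lesion-site late NT3 minus LC of Slc18a3 at -0.0149 on the day of like RT1-CE10. Against the excitatory and inhibitory list, member minus list turned in early rostral LC to -0.3125 for Chat, -0.1197 for Slc5a7 and -0.3476 for Chodl, in intermediate rostral LC to -0.1385 for Chat and -0.0112 for Chodl, in late rostral LC to -0.1099 for Chat, in early caudal LC to -0.4081 for Chat, -0.4478 for Slc5a7 and -0.3277 for Chodl, to 0.1576 for Slc5a7 in lesion-site NT3 minus LC, to 0.0041 for Slc18a3 in caudal ET minus LC, and from day 1 to day 3 caudally to -0.0438 for Chat and -0.0207 for Slc18a3.

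The replicate numbers did not meet the rule for pairing, an r over 0.1 in every pair: same-numbered rostral NT3 and LC arrays deviated together with a mean r of 0.022, with 8 of 21 over 0.1, caudal ones with 0.0017, with 5 of 21, rostral ET and LC arrays with 0.0788, with 11 of 20, and rostral and caudal arrays of the same arm and day with 0.0859, with 32 of 62. Arrays of unlike number had mean r of -0.0107, -0.0021, -0.0395 and -0.0432 in that order. Caudal ET and LC arrays went the other way, at -0.0905 for the same number against 0.0435. A rule on every pair is strict for groups of 3, so whether the numbers tie arrays to an animal is not settled by it. With the number as a block, 158 of 160 values kept their side, Slc18a3 in late caudal LC stood at -0.28 (adjusted p = 0.0512 by limma) and Slc18a3 at the lesion site by day at F = 3.06 (adjusted p = 0.0491).

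Counts of called genes over the whole array also moved by more than 1.5 times. They are given with the count as reported in brackets. With array weights they were rostrally 1639 (333) for NT3 minus LC, 5804 (3633) for NT3 minus ET, 9591 (3399) for NT3 by day and 8194 (2731) for ET by day. Caudally they were 2973 (1175) for NT3 minus LC, 2785 (1009) for NT3 minus ET, 1722 (422) for ET minus LC, 8039 (865) for NT3 by day and 7933 (693) for ET by day. They were 10114 (6095) for lesion-site NT3 by day, 288 (61) and 2464 (879) for rostral minus caudal LC and NT3, and 154 (13) and 2826 (1494) for the NT3 and ET segment contrasts. On days of like RT1-CE10 they were rostrally 58 (333) for NT3 minus LC, 1954 (3633) for NT3 minus ET, 493 (2741) for ET minus LC, 0 (3399) for NT3 by day and 922 (2731) for ET by day. Caudally they were 236 (1175), 1655 (422), 0 (865) and 37 (693) for NT3 minus LC, ET minus LC, NT3 by day and ET by day, and elsewhere 883 (6095) for lesion-site NT3 by day, 529 (13) and 864 (1494) for the segment contrasts. With the dorsal root ganglion covariate lesion-site NT3 minus LC had 2399 (5045), by day 3293 (6095) and late 1295 (4541). Caudal ET minus LC had 682 (422) with quantile normalization, 663 with 75th percentile scaling, 254 with probe-set means, 165 with the groups alone and 59 with the muscle covariate, which also gave 611 (1009) for caudal NT3 minus ET. Caudal ET by day had 1068 (693) with quantile normalization, 1410 in 1 fit, 171 with the groups alone and 1321 with the muscle covariate. The NT3 segment contrast had 5 and 6 (13) with the 2 scalings, and rostral minus caudal LC 26 (61) with the groups alone.

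The share of calls that were higher moved under quantile normalization and 75th percentile scaling from 34.7% to 45.3% and 52.5% for rostral ET minus LC, from 42.9% to 54.2% and 54.0% for rostral and from 42.4% to 56.9% and 54.8% for caudal late minus day 3, from 39.0% to 53.2% and 53.8% for caudal LC late minus early, and from 26.6% to 38.5% and 45.2% for the ET segment contrast. Quantile normalization moved rostral NT3 minus LC from 41.7% to 55.9%. The 75th percentile moved rostral NT3 minus ET from 57.7% to 46.8%, caudal NT3 minus LC from 60.6% to 46.4%, caudal NT3 minus ET from 55.5% to 39.8% and the NT3 segment contrast from 15.4% to 33.3%. Signal near the floor limits all 5 genes at the lesion site, Slc5a7 and Chodl included.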
